A study of Mus musculus with 8 samples.

Results

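The genes described here are 32 genes of glycolysis and of glucose and lactate transport, out of 32780 genes quantified. They are 3 glucose transporters, 17 glycolytic enzymes, 2 lactate dehydrogenase subunits, 2 monocarboxylate transporters and 8 kinase genes that set the flow through the pathway. They were chosen by function, as a list of gene symbols and not by a cut on measured values. Earlier results of these data were known when the list was made. TC1 is a mouse embryonic stem cell line, and all 8 libraries came from wild-type cells of this 1 line. The control group was the undifferentiated culture at day 0 (4 libraries) and the other group the culture at day 10 of differentiation (4 libraries). No label gives the factors or medium used, names a cell type at day 10 beyond differentiated cells, or states whether same-day libraries were separate cultures. The p-values therefore set the difference between the days against the spread of same-day libraries, a spread that may be only technical. No batch is given, and any batch that coincided with the day cannot be told apart from differentiation.

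Glycolysis converts glucose to pyruvate in the cytosol. Glucose enters through facilitative transporters, is trapped by hexokinase and committed by phosphofructokinase. Pyruvate is then reduced to lactate and exported with a proton, or it is oxidised in mitochondria after the pyruvate dehydrogenase complex, which the PDK kinases switch off. Most steps have several isozymes that differ by tissue, such as the muscle, liver and platelet forms of phosphofructokinase. Pluripotent stem cells are known for high glycolytic flux, and heart muscle for its use of fatty acids and lactate.

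The day 0 libraries held 11242568 to 15808039 estimated counts and the day 10 libraries 13525255 to 17843651. The 10 stem cell markers summed to 3687 to 4129 CPM (counts scaled to library size) at day 0 and to 165 to 220 at day 10. Klf4 held most of the day 10 sum, at 145, 161, 173 and 149 CPM, against 179 on average at day 0. Pou5f1, Nanog and Sox2 averaged 2.72, 1.71 and 21.9 CPM at day 10. The 16 cardiomyocyte markers summed to 75.7 to 94.5 CPM at day 0 and to 1002 to 1675 at day 10, beside fibroblast markers at 5983 to 10668 and visceral endoderm markers at 1161 to 3787. The day 10 samples were thus mixtures, and in bulk RNA fewer cells of a type and less RNA per cell cannot be told apart. Day 10 library 2 stood apart from the other 3 libraries of its day in marker sums and in many of the 32 genes, as described with the library values.

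The summed RNA level of the 32 genes was lower at day 10. The TPM of the 32 genes, a level per transcript length, summed to 12758, 13774, 13828 and 14954 in the day 0 libraries and to 6497, 9373, 6622 and 6842 in the day 10 libraries. The sums of the days did not overlap, and day 10 library 2 was the highest of its day. All 32 genes passed the filter on low counts. In edgeR's quasi-likelihood test over 15097 genes with Benjamini-Hochberg adjustment, 19 of the 32 genes were lower at day 10, 6 were higher and 7 did not pass. Of all genes tested, 39.4% were lower and 42.7% higher, so that 82.1% passed in either direction. The median log2 change was -0.84 over the 32 genes and 0.06 over all genes tested. On TPM values, where the median of all genes lay at 0.45 and 65.8% of all calls were higher (52.0% on counts), 16 of the 32 genes were lower and 8 higher.

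Changes larger than 2-fold were tested with glmTreat, since most genes passed the test of any change. By that test 13 of the 32 genes were lower, against 17.3% of all genes, and 3 were higher, against 24.1%. The 13 are Slc2a1, Slc2a3, Hk2, Pfkp, Aldoa, Aldoc, Gapdh, Pgam1, Eno1, Pkm, Ldha, Slc16a3 and Pdk1, and the 3 are Eno2, Slc2a4 and Pdk2. The libraries of the 2 days did not overlap for 18 genes that were lower (37.2% of all genes) and 6 that were higher (40.8%). Abundant genes were mostly on the lower side and the 6 that rose had at most 134 CPM on average at day 10.

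**Figure D1:**
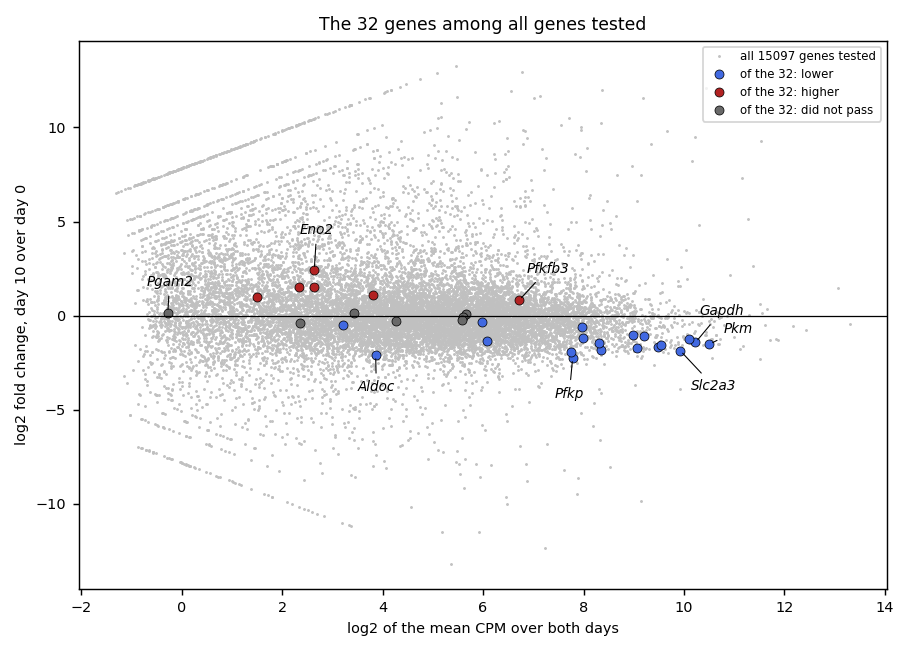
Mean level over both days (x axis, log2 of CPM) against the log2 fold change of day 10 over day 0 (y axis) for each of the 15097 genes tested (grey points) and the 32 genes (coloured by call). The abundant members such as Pkm and Gapdh lie below 0, while Eno2, at 2.42, lies highest of the 32.

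**Figure D2:**
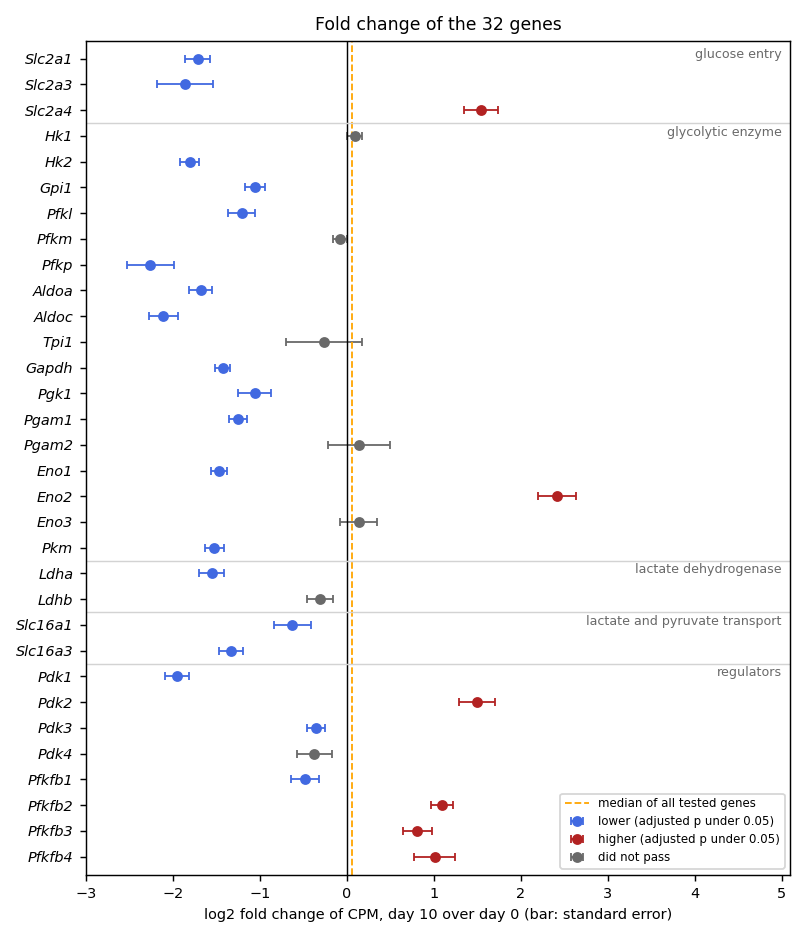
Log2 fold change of CPM at day 10 over day 0 (x axis) with its standard error (bars) for each of the 32 genes, ordered by role. Blue points are the 19 genes that were lower, red points the 6 that were higher, grey points the 7 that did not pass, and the dashed line is the median of all genes tested (0.06).

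Promoters are shown because so many of the genes moved together and because the hypoxia-inducible factors are textbook regulators of the pathway. The core of their binding site reads ACGTG or GCGTG, and these letters were searched on both strands in the 250 bases before each annotated start in RefSeq (GRCm38.p6). ACGTG overlaps the CACGTG box bound by Myc and other factors, and a CACGTG counts as 1 match on each strand. RefSeq promoters were found for 30 of the 32 genes, and 26 of the 30 (86.67%) held a match in at least 1 promoter, against 41.54% of 27025 genes. Per promoter the share was 73.47% of 49, against 38.6% of 32851. The promoters of these genes also had a higher GC content, with a median of 58.8% against 52.4%, and the part of base composition in these shares was not tested. Both backgrounds hold genes whether or not they were expressed here, and a comparison with the 15097 tested genes alone was not made. A match is a description of letters and not a site. Matches occurred in genes of each outcome, such as Hk1 (3 in 1 promoter), which did not pass, and Pfkfb2 (4 in 1 promoter), which was higher. Gpi1, which was lower, held none, and a link of matches with direction was not tested. The 4 sequences below are on the strand of the gene, with matches in capitals: Ldha (chr7:46845554-46845803, plus strand, 5 matches), Pgk1 (chrX:106186850-106187099, plus strand, 2 matches) and Pfkp (chr13:6648772-6649021, minus strand, 3 matches), which were lower at day 10, and Pfkfb3 (chr2:11502091-11502340, minus strand, 3 matches), which was higher.
Ldha promoter: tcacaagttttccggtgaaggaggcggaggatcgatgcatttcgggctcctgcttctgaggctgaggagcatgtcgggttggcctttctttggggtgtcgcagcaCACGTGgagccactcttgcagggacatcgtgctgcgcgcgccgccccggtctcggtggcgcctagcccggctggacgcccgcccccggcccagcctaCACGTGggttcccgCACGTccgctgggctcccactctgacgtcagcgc
Pgk1 promoter: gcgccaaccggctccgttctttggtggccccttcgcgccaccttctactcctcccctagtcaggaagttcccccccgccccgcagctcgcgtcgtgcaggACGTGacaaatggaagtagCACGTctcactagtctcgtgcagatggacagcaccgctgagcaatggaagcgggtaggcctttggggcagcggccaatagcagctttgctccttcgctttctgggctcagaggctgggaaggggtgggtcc
Pfkp promoter: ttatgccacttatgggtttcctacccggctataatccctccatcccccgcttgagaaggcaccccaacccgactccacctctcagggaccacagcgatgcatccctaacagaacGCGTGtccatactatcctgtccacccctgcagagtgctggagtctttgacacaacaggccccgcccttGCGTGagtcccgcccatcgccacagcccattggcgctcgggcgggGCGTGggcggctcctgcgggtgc
Pfkfb3 promoter: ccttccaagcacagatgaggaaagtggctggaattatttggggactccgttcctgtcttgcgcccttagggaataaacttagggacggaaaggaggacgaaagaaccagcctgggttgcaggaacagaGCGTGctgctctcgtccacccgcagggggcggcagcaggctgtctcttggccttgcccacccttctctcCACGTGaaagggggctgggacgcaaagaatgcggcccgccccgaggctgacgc

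Among the glucose transporters, the 2 abundant genes fell and the insulin-responsive one rose. Slc2a1 encodes GLUT1, the basal transporter of most growing cells, and was measured at 672, 859, 862 and 899 CPM at day 0 and at 221, 325, 232 and 224 at day 10. Slc2a3 encodes GLUT3, a high-affinity transporter known from neurons and early embryos, and stood at 1195, 1621, 1565 and 1717 CPM at day 0 and at 224, 638, 463 and 352 at day 10. No day 10 library of either gene reached the lowest day 0 library, and day 10 libraries 1 and 2 of Slc2a3 were far apart. The log2 change was -1.72 (SE 0.14, adjusted p = 6.7e-07) for Slc2a1 and -1.86 (SE 0.32, adjusted p = 0.00108) for Slc2a3. The order of the day 10 libraries in Slc2a3 was that of the summed visceral endoderm markers, which were 1161, 3787, 2647 and 2182 CPM, and the part of these cells in the result was not tested. Slc2a4 encodes GLUT4, the insulin-responsive transporter of muscle and fat, and stood at 2.58, 3.20, 2.02 and 2.49 CPM at day 0 and at 7.87, 6.67, 6.94 and 8.69 at day 10. It rose 2.92-fold (log2 1.54, SE 0.19, adjusted p = 4.39e-06) without overlap, and it remained the rarest of the 3 transporters per length, at 9.08 ± 2.75 TPM (SD, n = 4).

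At the first step, Hk2 fell and Hk1 did not pass on counts. Hk2, the inducible hexokinase, stood at 479, 550, 495 and 507 CPM at day 0 and at 123, 182, 132 and 142.4 at day 10, a fall by 1.81 on the log2 scale (SE 0.11, adjusted p = 6.79e-09). Hk1, the housekeeping hexokinase, stood at 41.8 to 53.0 CPM at day 0 and at 47.2 to 55.8 at day 10, with overlap (log2 0.09, SE 0.09, adjusted p = 0.366). On TPM values Hk1 passed as higher (log2 0.49, adjusted p = 0.0188 by limma), close to the median of all genes on that scale, and with the trend of change over gene length removed (the length trend) it was at -0.14 without passing. Gpi1, which interconverts glucose and fructose phosphates, averaged 687 CPM at day 0 and 330 at day 10 (log2 -1.06, SE 0.11), short of the test of a 2-fold change (adjusted p = 0.276).

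The 3 phosphofructokinase genes moved apart. Pfkp, the platelet form, stood at 332, 421, 339 and 366 CPM at day 0 and at 57.8, 120.5, 51.9 and 73.8 at day 10. It fell by 2.26 on the log2 scale (SE 0.27, adjusted p = 0.000112), the steepest fall of the 32 genes in this fit, and day 10 library 2 was 1.97 times the mean of the other 3. Pfkl, the liver form, stood at 310 to 396 CPM at day 0 and at 131, 211, 133 and 139 at day 10 (log2 -1.21, SE 0.16, adjusted p = 5.76e-05). Pfkm, the muscle form, held 47.6 to 50.9 CPM at day 0 and 41.6 to 51.4 at day 10, and did not pass (adjusted p = 0.373). Its log2 change was -0.08 on counts. It passed as higher on TPM values (log2 0.33, adjusted p = 0.0091 by limma) and as lower after removal of the length trend (log2 -0.32, adjusted p = 0.00137). Over 20 alternatives its adjusted p ranged from 0.00137 to 0.682. Pfkp overlaps Pitrm1, and Pfkm overlaps Senp1, on the opposite strand. The sources used here do not say whether strand was used in counting, so reads of such pairs cannot be told apart.

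The enzymes from aldolase to enolase were lower except triosephosphate isomerase and the muscle and neuronal isozymes. Aldoa changed by -1.68 (SE 0.13) and Aldoc, the brain aldolase, by -2.11 (SE 0.16) on the log2 scale, with Aldoc at 18.0 to 29.7 CPM at day 0 and 4.60 to 6.11 at day 10. Gapdh, which is often used as a reference gene, stood at 1534, 1664, 1894 and 1912 CPM at day 0 and at 639, 750, 624 and 586 at day 10. It was 2.69-fold lower (log2 -1.43, SE 0.09, adjusted p = 3.43e-09), and the lowest day 0 library was above every day 10 library. Pgk1, the first ATP-forming step, fell by 1.06 (SE 0.19, adjusted p = 0.000681) and Pgam1 by 1.25 (SE 0.10, adjusted p = 1.64e-07) on the log2 scale. Tpi1 did not pass (log2 -0.26, SE 0.44, adjusted p = 0.601), with day 0 libraries at 53.3, 16.1, 59.1 and 81.1 CPM and day 10 libraries at 41.4, 50.7, 37.1 and 45.7. Day 0 library 2 was far below the others for this gene, and without it Tpi1 was lower (log2 -0.58, adjusted p = 0.0056), while without day 0 library 4 the log2 change was 0.03. Its adjusted p ranged from 0.0056 to 0.956 over the alternatives. Pgam2, the muscle mutase, held 6 to 19 estimated counts in any library and did not pass (log2 0.14, SE 0.35; -0.0006 without day 10 library 4).

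Enolase showed the sharpest contrast between isozymes. Eno1, the ubiquitous form, stood at 483, 404, 461 and 515 CPM at day 0 and at 165, 195, 146 and 165 at day 10 (log2 -1.47, SE 0.09, adjusted p = 5.1e-09). Eno2, the neuronal form, stood at 1.66, 1.95, 1.43 and 2.68 CPM at day 0 and at 13.1, 9.88, 8.69 and 10.4 at day 10, and rose 5.35-fold (log2 2.42, SE 0.22, adjusted p = 1.25e-07). Every day 10 library was above every day 0 library for Eno2. Neuron markers summed to 297 to 331 CPM at day 0 and to 81.8, 210, 91.6 and 83.0 at day 10. Of the 9 tested 4 were higher, Map2, Snap25, Syt1 and Elavl4, and 3 lower, with Stmn2 (175 CPM on average at day 0 and 3.52 at day 10) holding most of the fall of the sum. The part of neurons in the Eno2 level was not tested. Eno3, the muscle form, stood at 9.05 to 11.6 CPM at day 0 and at 6.87 to 14.6 at day 10 and did not pass (log2 0.14; -0.03 without day 10 library 4). Skeletal muscle markers summed to 10.3 to 13.99 CPM at day 0 and to 6.55 to 10.2 at day 10, where Myod1 and Myf6 were at 0 counts. Of the 5 tested 2 were higher, Tnnt3 and Tnni2, and 2 lower, Myh3 and Actn3, and Actn3 (8.82 and 1.13 CPM) held most of the fall of the sum. Eno1 carries an uncertainty of its own, because its near-identical retrocopy Eno1b (99.5% identical) was given 53.29% of their joint counts at day 0 and 50.33% at day 10.

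Pkm, the last step, fell, and the difference in the share of its transcripts assigned to the M1 form did not pass. Pkm stood at 1978, 2178, 2212 and 2269 CPM at day 0 and at 665, 960, 696 and 680 at day 10 (log2 -1.53, SE 0.11, adjusted p = 5.64e-08). The gene, on chromosome 9, splices 1 of 2 mutually exclusive exons into its messenger: the M1 form is constitutively active and known from adult muscle and brain, and the M2 form is allosterically regulated and known from growing cells. The exons are printed because the comparison rests on them. They lie at chr9:59675029-59675195 (M1) and chr9:59675568-59675734 (M2) on the plus strand of GRCm38, are 167 bases each, and capitals mark the 64 positions at which they differ.
Pkm M1 exon: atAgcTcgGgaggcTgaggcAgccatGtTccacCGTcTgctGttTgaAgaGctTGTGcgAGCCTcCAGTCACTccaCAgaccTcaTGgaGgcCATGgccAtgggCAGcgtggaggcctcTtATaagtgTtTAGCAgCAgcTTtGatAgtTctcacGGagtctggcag
Pkm M2 exon: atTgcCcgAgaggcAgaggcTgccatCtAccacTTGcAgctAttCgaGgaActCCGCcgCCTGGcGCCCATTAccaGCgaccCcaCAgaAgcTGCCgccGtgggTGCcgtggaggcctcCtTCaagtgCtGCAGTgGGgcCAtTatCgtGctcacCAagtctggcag
Transcripts with the M1 exon made up 63.7, 57.1, 63.0 and 59.8% of the TPM of transcripts with either exon at day 0, and 58.7, 56.0, 63.4 and 55.9% at day 10. The days overlapped, and the mean difference was -2.39 percentage points (exact permutation test, two-sided, p = 0.286, adjusted p = 0.346). This share is of transcripts and not of reads on the exons, and 8 of the 11 Pkm transcripts hold neither exon. The annotated M2 transcript is also 205 bases longer at the 5′ end and 186 at the 3′ end, so reads on the ends enter the split. The share thus cannot say how often each exon was used. Its M1 majority on both days, where the M2 form is the one known from growing cells, was not checked on reads of the exons.

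The lactate genes fell with the enzymes in their abundant forms. Ldha, the subunit known for making lactate, stood at 970, 1085, 1191 and 1227 CPM at day 0 and at 325, 503, 336 and 358 at day 10 (log2 -1.55, SE 0.14, adjusted p = 1.6e-06). Ldhb, the heart-type subunit, stood at 23.9, 19.2, 24.8 and 17.6 CPM at day 0 and at 19.3, 19.3, 17.5 and 12.8 at day 10, with overlap, and did not pass (log2 -0.31, adjusted p = 0.0708). It was at 0.05 on TPM values and at 0.10 with the length trend removed, and it passed as lower without a low count filter (adjusted p = 0.0463) and without day 0 library 4 or day 10 library 1 or 2 (adjusted p = 0.0284, 0.0355 and 0.0367). Slc16a3, which encodes the lactate exporter MCT4, fell from 79.6, 95.9, 97.4 and 112 CPM to 35.0, 48.2, 30.7 and 39.0 (log2 -1.33, SE 0.14, adjusted p = 2.7e-06). Slc16a1, which encodes the widespread lactate and pyruvate transporter MCT1, stood at 267, 316, 310 and 325 CPM at day 0 and at 134, 256, 245 and 154 at day 10. Its day 10 libraries fell into a low and a high pair, and its log2 change of -0.63 (SE 0.22, adjusted p = 0.0269) lost its call when day 0 library 2, 3 or 4 was left out (adjusted p = 0.0611, 0.0539 and 0.0580). Its adjusted p ranged from 0.000497 to 0.278 over the alternatives.

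The kinases that regulate the pathway moved in both directions. Pdk1, a hypoxia-inducible kinase of pyruvate dehydrogenase, stood at 296, 363, 356 and 362 CPM at day 0 and at 79.1, 117, 74.6 and 83.8 at day 10 (log2 -1.96, SE 0.14, adjusted p = 1.76e-07). Pdk2, the widespread form of heart and other tissues, stood at 2.03, 2.93, 3.54 and 4.39 CPM at day 0 and at 8.32, 9.88, 9.06 and 9.42 at day 10, and rose 2.82-fold (log2 1.49, SE 0.21, adjusted p = 1.16e-05). For both genes the days did not overlap. Pdk3 fell by 0.36 on the log2 scale (SE 0.10, adjusted p = 0.00614), with day 0 libraries at 54.3 to 80.0 CPM and day 10 libraries at 52.7 to 59.8 that overlapped. It lost its call with average transcript length as an offset (log2 -0.24, adjusted p = 0.0837) and on TPM values, where it was at 0.17. Pdk4, the form induced by fasting and fatty acids, stood at 4.52 to 6.76 CPM at day 0 and at 3.80 to 5.52 at day 10 and did not pass (log2 -0.37, adjusted p = 0.107). It was at 0.07 on TPM values, and it passed as lower after removal of the length trend (log2 -0.80, adjusted p = 0.00237) and without day 10 library 1 (log2 -0.51, adjusted p = 0.0442).

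The PFKFB enzymes make and remove fructose 2,6-bisphosphate, the activator of phosphofructokinase, and 3 of the 4 were higher at day 10. Pfkfb3, the form with the strongest kinase side, stood at 55.4, 85.6, 73.8 and 90.2 CPM at day 0 and at 137, 163, 108 and 127 at day 10 (log2 0.81, SE 0.16, adjusted p = 0.00119). Pfkfb2, the heart form, stood at 7.92 to 9.85 CPM at day 0 and at 17.3 to 21.7 at day 10 (log2 1.09, SE 0.12, adjusted p = 1.29e-06). Both genes separated the days in all 8 libraries. Pfkfb4 stood at 1.57 to 2.36 CPM at day 0 and at 3.07 to 4.51 at day 10 (log2 1.01, SE 0.24, adjusted p = 0.00142), and lost its call with average transcript length as an offset (log2 0.38, adjusted p = 0.211, over the alternatives 0.00057 to 0.211). Pfkfb1, the liver and muscle form, fell from 9.40 to 13.7 CPM to 6.84 to 9.06 (log2 -0.48, SE 0.16, adjusted p = 0.0141). Its call was lost without day 0 library 4 (adjusted p = 0.0615), with average transcript length as an offset (adjusted p = 0.1004), after removal of the length trend (log2 -0.0018) and on TPM values (log2 0.05). Pfkfb1 overlaps Apex2, and Pfkfb2 overlaps Yod1, on the opposite strand. Apex2 and Yod1 held more counts than their partners on both days, and Yod1 had 676 and 1801 counts where Pfkfb2 had 466 and 1186.

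**Figure D3:**
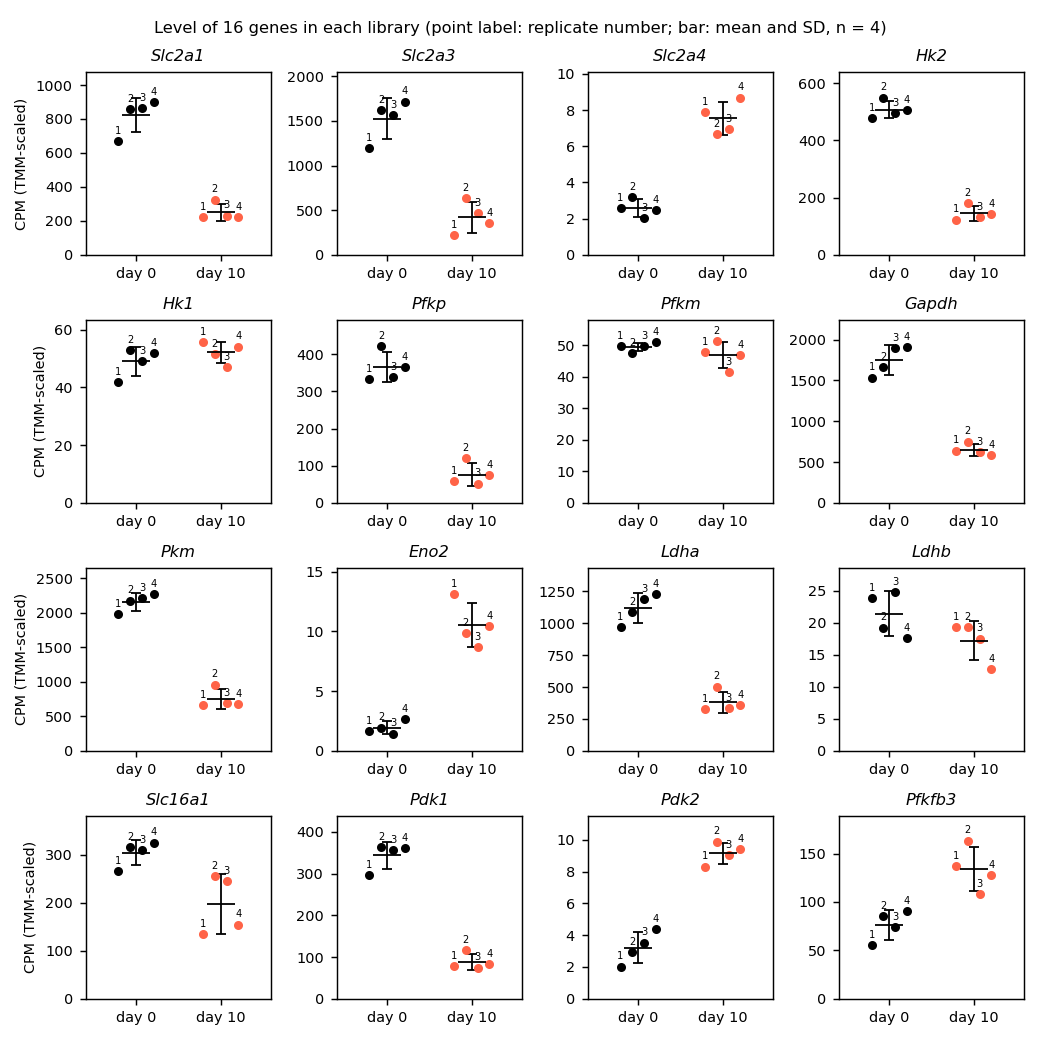
Level in TMM-scaled CPM (y axis, from 0) of 16 of the genes in the 4 day 0 and 4 day 10 libraries (points, with their replicate numbers), with the mean and SD of each day (n = 4). Slc2a4, Eno2, Pdk2 and Pfkfb3 lie higher at day 10, Hk1, Pfkm and Ldhb overlap, and day 10 library 2 lies highest of its day in Pkm, Ldha, Pdk1 and Pfkp.

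Per length, Gapdh was the most abundant of the 32 genes on both days, at 2462 ± 126 TPM at day 0 and 1235 ± 157 at day 10 (SD, n = 4). At day 0 it was followed by Pkm (1698 ± 83.4), Pgam1 (1485 ± 114), Ldha (1435 ± 98.1) and Aldoa (1350 ± 205), and the last 3 differed by less than their spread. At day 10 Pgam1 (834 ± 153), Gpi1 (805 ± 212), Pkm (786 ± 168) and Ldha (684 ± 151) followed, none further from its neighbour than their spread. Pgam2, Slc2a4, Pfkfb4, Eno2, Pdk4 and Pdk2 were the 6 rarest genes at day 0, with means of 1.85 to 2.70 TPM.

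The balance between isozymes shifted in most families. Each isozyme's share of its family's TPM was compared between the days by a two-sided exact permutation test over the 70 assignments of the libraries, for 23 shares with the Pkm exon share among them. For 16 of the 23 the days separated fully, which gives the smallest p this design allows (0.0286, adjusted 0.0411). Shares of a family sum to the whole, so the 16 are not separate results, and a share can rise while its gene falls. The share of Pfkl rose, for example, while its log2 change on counts was -1.21. How often shares separate in other gene families was not tested, and 82.1% of all genes passed the test of any change. Hk2 fell from 85.02 ± 3.18% to 63.1 ± 7.80% of hexokinase (SD, n = 4), and Hk1 made up the rest. Pfkp fell from 48.5 ± 1.17% to 25.3 ± 2.92% of phosphofructokinase, while Pfkm rose from 7.85 ± 0.779% to 21.1 ± 3.03% and Pfkl from 43.7 ± 0.420% to 53.6 ± 2.30%.

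By TPM of all transcripts, pyruvate dehydrogenase kinase showed the widest shift. Pdk1 stood at 85.5, 81.6, 82.2 and 83.8% at day 0 and at 51.8, 60.7, 47.8 and 52.3% at day 10. Much of this TPM was not from coding transcripts. A processed transcript of 777 bases held 40.68% of Pdk1 TPM at day 0 and 38.64% at day 10. The protein-coding transcript of 5185 bases held 20.2% and 31.98%. On estimated counts the share of Pdk1 was 81.3 ± 1.17% and 55.8 ± 5.16%. By TPM the share of Pdk3 rose from 15.3 ± 1.59% to 39.1 ± 4.50%, though the gene itself was lower on counts (log2 -0.36). The share of Pdk2 rose from 0.718 ± 0.191% to 6.03 ± 0.921% and that of Pdk4 from 0.705 ± 0.102% to 1.69 ± 0.366%. Eno2 rose from 0.331 ± 0.107% to 3.99 ± 1.01% of enolase and Eno3 from 1.75 ± 0.394% to 4.53 ± 1.66%. Ldhb rose from 2.16 ± 0.422% to 4.68 ± 1.11% of lactate dehydrogenase, so Ldha kept the larger share on both days. Slc16a3 fell from 45.0 ± 1.08% to 30.9 ± 6.92% of the 2 monocarboxylate transporters.

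The shares of Slc2a1 and Slc2a3 among the glucose transporters did not pass, at 38.8 ± 2.81% and 39.1 ± 7.84% for Slc2a1 (exact permutation p = 0.971). Slc2a4 rose from 0.177 ± 0.0388% to 1.84 ± 0.866%. Among the PFKFB genes the share of Pfkfb1 fell from 18.2 ± 3.19% to 8.52 ± 2.01%, while Pfkfb3, at 70.8 ± 5.70% and 80.1 ± 3.58%, did not pass (exact permutation p = 0.0571, adjusted p = 0.073). With protein-coding transcripts alone 15 shares passed, and those of Pdk4 and Pfkfb1 did not (adjusted p = 0.073 by the exact permutation test). The share of Pfkfb4, which had not passed with all transcripts, passed there as higher by 1.02 percentage points (adjusted p = 0.0438 by the same test).

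**Figure D4:**
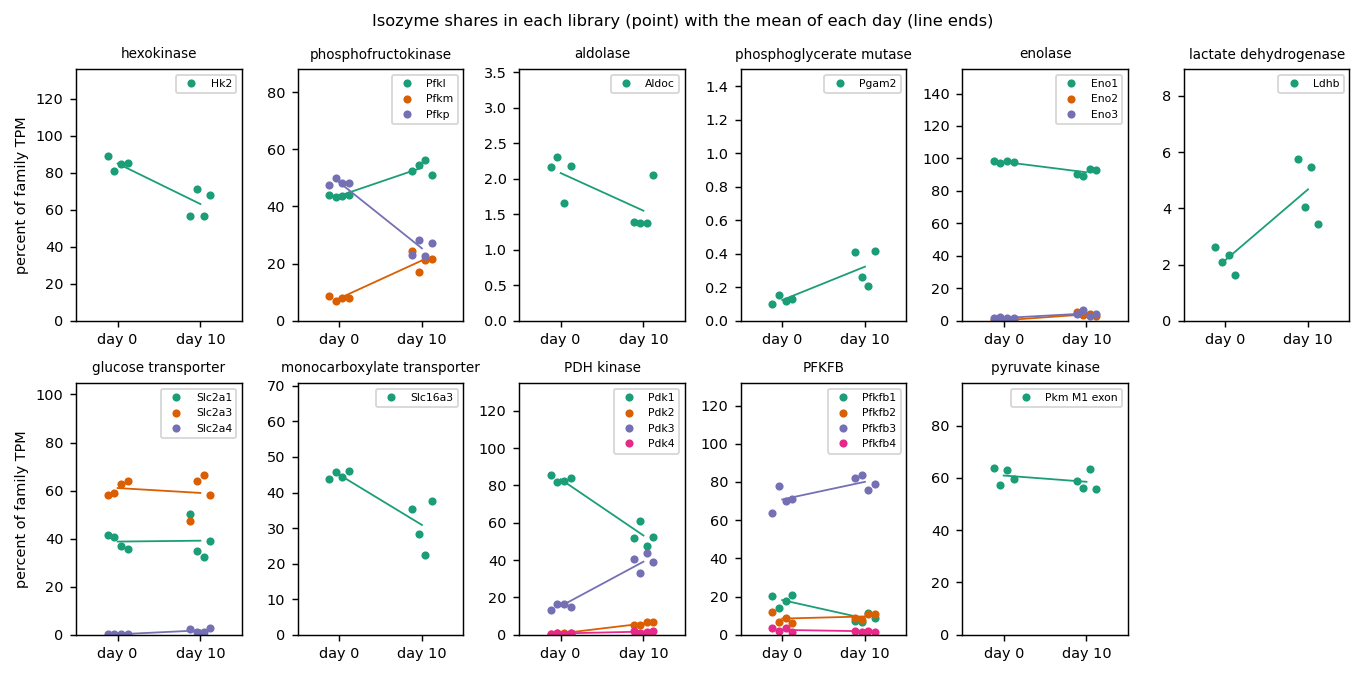
Percent of the family's TPM (y axis, from 0) for each isozyme in each library (points) at day 0 and day 10, with lines that join the means of the days, and the share of Pkm transcripts with the M1 exon. In families of 2 genes 1 gene is drawn, and in the panel of Pkm the days overlap (means of 60.9 and 58.5%).

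The libraries of day 10 were not alike in these genes. Library 2 was the highest of the 4 for 21 of the 32 genes, against 30.3% of all genes tested, and for 16 of the 19 that were lower at day 10, against 36.0% of all genes that were lower. For those 19 genes library 2 was 1.40 times the mean of the other 3 libraries at the median, against 1.02 for all lower genes. Of the 6 genes that rose, library 2 was highest for 3, against 23.5% of all genes that were higher. The coefficient of variation was larger at day 10 than at day 0 for 19 of the 32 genes, against 47.2% of 14811 genes, and for 9 without day 10 library 2. Library 2 also had the highest summed visceral endoderm (3787 CPM) and neuron markers (210) and the lowest fibroblast (5983, others 8520 to 10668) and macrophage markers (54.0, others 102 to 119.2), and their part in these values was not tested. Without this library 20 of the 32 genes were lower and 6 higher, and the log2 changes of Pkm, Ldha and Slc2a1 were -1.67, -1.72 and -1.87. At day 0, library 1 was the lowest of its day for 22 of the 32 genes, against 30.1% of all genes.

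**Figure D5:**
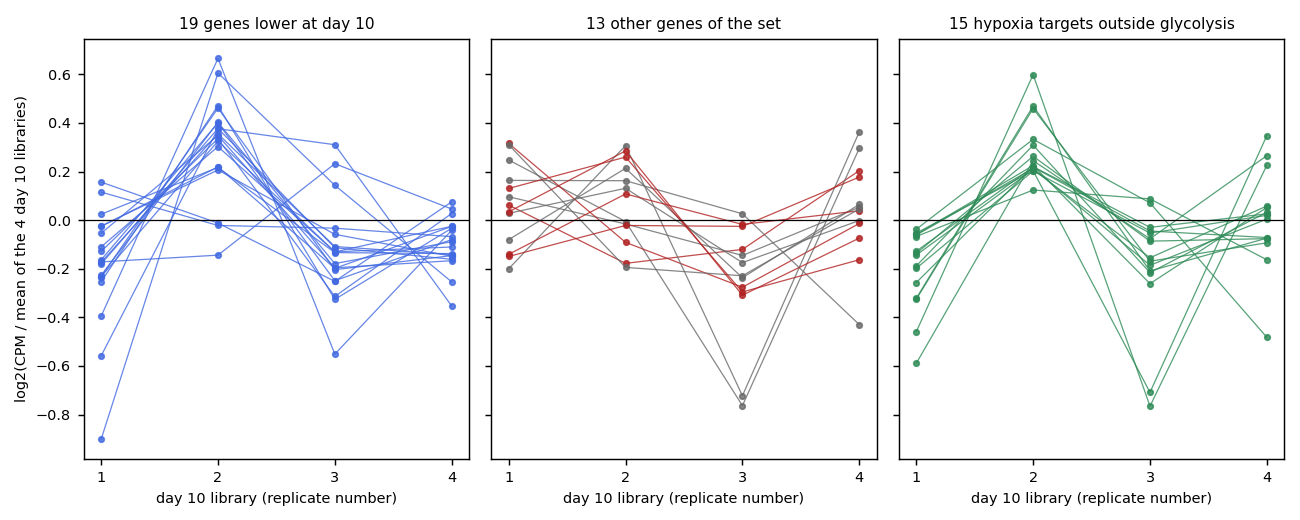
Log2 of CPM over the mean of the 4 day 10 libraries (y axis) in each day 10 library (x axis), 1 line per gene, for the 19 genes that were lower, the other 13 of the 32 (red higher, grey not passing) and 15 hypoxia targets outside glycolysis. Library 2 is the peak for 16 of the 19 genes on the left and for 13 of the 15 on the right.

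Genes that share regulators or metabolites with the pathway were read from lists, whose counts stand against 39.4% lower and 42.7% higher of all genes tested. Of 15 tested hypoxia targets outside glycolysis 11 were lower and 1 higher, with a median log2 change of -0.65, and 13 were highest in day 10 library 2, against 30.3% of all genes. Egln3, an oxygen-sensing prolyl hydroxylase, fell by 2.005 (SE 0.14), Adm, a vasodilator peptide, by 2.17 (SE 0.27), and Vegfa, the endothelial growth factor, rose by 0.73 (SE 0.09) on the log2 scale. Of 10 genes of the hypoxia-inducible factor pathway 6 were higher, among them Hif3a (log2 1.37) and Arnt2 (1.68), and 4 were lower, Egln3 among them, shares not far from those of all genes. The pentose phosphate pathway, which branches from glucose 6-phosphate, had 8 of 9 genes lower (all genes 39.4%), with Taldo1 at -1.92 and Tkt at -1.23, and 1 higher, H6pd at 1.30. Of 10 genes that carry pyruvate into mitochondria and oxidise it, 7 were lower, including Pdha1 (-1.16) and Pdhb (-1.42), and 1 higher, the phosphatase Pdp1 (0.78).

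In glycogen metabolism 10 of 14 tested genes were higher (all genes 42.7%) and 2 lower (39.4%), with a median log2 change of 0.72. Pygb, the brain glycogen phosphorylase, rose by 1.99, Gyg, the glycogenin primer, by 2.33 and Ugp2 by 1.35 on the log2 scale, while Gys1, the muscle glycogen synthase, fell by 0.84. Of 14 tested transporters of other hexoses and monocarboxylates 10 were higher (all genes 42.7%) and 3 lower (39.4%), with a median log2 change of 3.35. Some of them were near the floor at day 0, such as Slc2a13 (0.0651 CPM on average), and passed the low count filter through day 10 alone. For such genes the filter fixed the direction, so the count and the median are description only. Slc16a7, which encodes the pyruvate transporter MCT2, rose from 0.643 ± 0.420 to 12.5 ± 0.755 CPM (SD, n = 4), and Slc16a6 fell by 1.43 on the log2 scale. All values in these lists are from the same edgeR fit over all genes, and each named gene passed with an adjusted p of at most 6.77e-06.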

How the data were processed

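Total RNA was sequenced from 4 day 0 and 4 day 10 libraries of TC1 cells. Per the file headers, the authors deposited for each library a table of 126126 transcripts with an estimated count and a TPM value, and per the submitters' processing notes the tools were kallisto (version given as 1) and DESeq2. The transcript reference, genome build and use of strand were not stated in these sources. Estimated counts, as deposited, carry no scaling. The deposited TPM values take effective length into account and total 1000000 in each library.

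Transcripts were joined to GENCODE M21 by identifier without version (117992 matched, 93.6%). The 8134 others held 1.15 to 1.23% of counts and were left out. Counts were summed over 32780 genes, rounded and tested with edgeR 4.0.16 in R 4.3.3 (filterByExpr, TMM, robust quasi-likelihood fit, Benjamini-Hochberg threshold of 0.05). The common biological coefficient of variation was 12.5%, and the SE was taken from the log2 change and the quasi-likelihood F (size of the change over root F). CPM values are TMM-scaled. Alternatives used limma 3.58.1 on log2(TPM + 0.1) or log2(TPM + 1), and DESeq2 1.42.0. The scripts were tested on simulated data. Shares used exact permutation tests in scipy 1.17.1. Reads of near-identical copies and overlapping genes can be split either way by the counting.

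The 32 genes and all lists were chosen with earlier results of these data known. Named beside them are, from each list, up to 3 called genes of smallest p in its main direction and the 1 of smallest p in the other. The 2-fold test and the addition of Eno1b to Eno1 were chosen after seeing the data. The other lists were glycolytic isozymes, gluconeogenesis, Pkm splicing regulators, and glucose-responsive and Myc regulators. Promoters came from RefSeq (GRCm38.p6) and exons from GENCODE M21 (GRCm38).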

Additional observations from a re-analysis of the deposited data

Results flagged for a closer look

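A library was set apart when its gap to the nearest of the other 3 libraries of its day was most of the range of the 4. Of 210 groups of 4 examined, 14 had such a library, and chance gives about 1 in 20. In day 10 library 2 the high values were Pfkl at 211 CPM (next 139), Pgam1 at 802 (next 602), Pkm at 960 (next 696), Slc2a1 at 325 (next 232), Tkt at 98.3 (next 79.0) and the summed neuron markers at 210 (next 91.6). In day 10 library 4 the share of Aldoc in aldolase was high, at 2.05% (next 1.40%). In day 0 library 1 the low values were Pdk1 at 296 CPM (next 356), Adm at 8.39 (next 13.4) and Ptbp1 at 279 (next 313). In day 0 library 2 Fbp2 was high at 1.88 CPM (next 1.51), Hif3a high at 14.1 (next 11.6) and Pdha1 low at 314 (next 330). Hk3 was seen at 0.0842 CPM in day 0 library 3 and at 0 counts in the other 3.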

How the results depend on the processing

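Over 20 alternatives per gene (19 for Pgam2, which the filter at 1 CPM left out), 21 of the 32 genes kept their direction and side of the threshold, and the counts of lower and higher genes ranged from 16 to 21 and from 5 to 8. Only the test of a 2-fold change moved the higher count by more than 1.5 times, to 3. On log2(TPM + 0.1), with or without a filter at 1 TPM, the direction turned for Pfkm (0.33), Tpi1 (0.38), Ldhb (0.051), Pdk3 (0.17), Pdk4 (0.066), Pfkfb1 (0.051), Ptbp1 (0.033) and Hnrnpa2b1 (0.038). On log2(TPM + 1) the values were 0.32, 0.37, 0.050, 0.17, 0.048, 0.048, 0.033 and 0.038. Against the median of all genes on that scale (0.40 to 0.45) all 8 lay below it. With the length trend removed Pfkm and Pdk4 passed as lower (-0.32 and -0.80), Hk1 was at -0.14, Tpi1 at 0.45 and Ldhb at 0.10. With 1 library left out in turn, Tpi1 ranged from -0.58 to 0.027 (turned without day 0 library 4), Pgam2 from -0.00060 to 0.30 and Eno3 from -0.031 to 0.30 (both turned without day 10 library 4). The cause was not tested. Share differences in percentage points turned for Pfkfb4 (0.305 on estimated counts, with or without Eno1b, and 1.02 with protein-coding transcripts) and Slc2a1 (-1.18 with protein-coding transcripts). With 1 library left out they ranged from -3.31 to 2.62 for Slc2a1 and from -4.51 to 1.83 for Slc2a3. The number of genes more variable at day 10 ranged from 9 to 23 with 1 library left out. A share without 1 library has no test here, since 3 against 4 libraries cannot reach the threshold.

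With the replicate number as a block, 6 genes were higher and 20 lower (6403 and 5895 of all genes), and Ldhb passed (log2 -0.32, adjusted p = 0.0277, over all alternatives 0.0277 to 0.773). No other of the 32 genes changed its call. Same-numbered libraries of the 2 days deviated together only weakly (r = 0.03 to 0.049 across genes, which are not independent), so the numbers were not taken as pairs, though all 8 libraries correlated best with their own number. Depth limits Pgam2 most, at 6 to 19 counts per library.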

Other observations

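Among other glycolytic isozymes 4 of 11 tested genes were higher and 5 lower, near the shares of all genes tested (42.7% higher and 39.4% lower). Adpgk, the ADP-dependent glucokinase, fell by 1.19 (SE 0.07), Pgm2 by 1.04 (SE 0.08) and Bpgm, which makes 2,3-bisphosphoglycerate, by 0.53 (SE 0.12) on the log2 scale. Bpgm lost its call on TPM values (log2 -0.19, adjusted p = 0.305 by limma). Hk3, the hexokinase known from blood cells, stood at 2.43, 1.73, 2.26 and 2.58 CPM at day 10 and at 0 or 0.0842 at day 0. The macrophage markers, which rose from at most 4.15 CPM in sum to 119.2, 54.0, 102 and 118.6, were lowest in the same library as Hk3, and their part in its level was not tested. Of 6 tested genes of gluconeogenesis 1 was higher and 2 lower. Pck1, the cytosolic entry enzyme, stood at 0.803 to 1.40 CPM at day 10 and at most at 0.0922 at day 0, while Pck2, its mitochondrial form, fell by 1.01 (SE 0.08) and Fbp2 by 1.31 (SE 0.45). Fbp2, at 0.0736 CPM in day 10 library 1 and 0.560 to 1.05 in the others, lost its call on TPM values (adjusted p = 0.0693 to 0.104 by limma) and after removal of the length trend (log2 -0.92, adjusted p = 0.0762).

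Of 8 regulators of Pkm splicing 5 were lower (all genes 39.4%) and 2 higher (42.7%). Hnrnpa1, Ptbp1 and Hnrnpa2b1, which are known to repress the M1 exon, fell by 0.57 (SE 0.06), 0.48 (SE 0.07) and 0.43 (SE 0.10) on the log2 scale, and Ptbp2, the neuronal paralogue of Ptbp1, rose by 1.59 (SE 0.08). On TPM values Hnrnpa1, Ptbp1 and Hnrnpa2b1 did not pass by limma (log2 -0.13 for Hnrnpa1, 0.03 for Ptbp1 and 0.04 for Hnrnpa2b1), and Hnrnpa2b1 did not pass after removal of the length trend (log2 -0.05). The M1 share of Pkm transcripts did not pass. Of 12 glucose-responsive and Myc regulators 8 were lower (all genes 39.4%), including the glucose-induced arrestins Txnip (-0.79) and Arrdc4 (-0.74) and the pluripotency factor Esrrb (-6.81), and 3 higher, including Esrrg (4.69), a nuclear receptor known from heart.

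The transcript with the most TPM was the same on both days for 29 of the 32 genes. The exceptions were Eno2, Pfkfb4 and Pfkm. In Pfkm, Pfkm-205 was first at day 0 (54.59% of its TPM, 13.88 to 76.1% between libraries) and Pfkm-201 at day 10 (65.61%, 46.79 to 78.47%). For Gpi1 and Eno1 a short transcript took most of the TPM, with Gpi1-205 (581 bases) at 72.01% and Eno1-210 (519 bases) at 54.07% at day 0, so their TPM levels rest on how reads were split between long and short forms. The same holds for Pdk1, where the first transcript by TPM was a processed transcript of 777 bases, at 40.68% at day 0. Of the counts of Pfkp, the retained-intron transcript Pfkp-212 held 54.56% at day 10.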
